A study of Parhyale hawaiensis with 10 samples.

Results

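In the amphipod crustacean Parhyale hawaiensis, peaks of open chromatin in adult legs were set against peaks called from naked DNA. Adult leg libraries 1, 2 and 3 held 76268, 49502 and 48324 peaks, 174094 of the 856814 peaks in the 10 peak lists of the series. A peak was placed among the overlapping peaks when it shared at least 1 bp with any of the 161533 naked DNA peaks, and among the other peaks when it shared none. The members were therefore chosen by position, and some measures compared below are not independent of that rule. A wide peak meets another more readily than a narrow one. Scaffold size, spacing and the kind of the neighbour depend in part on where the naked DNA peaks lie.

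All animals came from the Chicago-F inbred line, and the labels name no genotype or treatment that differs between groups. The adult leg libraries were made from uninjured T4 and T5 legs of adults. The naked DNA library came from a whole adult and not from legs, so it stands for the genome and not for the tissue. Embryonic legs (T4 to T8, stages 25 to 26, pooled embryos, 3 libraries) and single whole embryos at stages 20, 23 and 24 (1 library each) made up the other nuclei libraries. The sources used here do not say whether the leg libraries came from separate animals, so the p-values measure the spread between these libraries, which may be technical. The labelled tissue could not be checked against marker genes, since the lists hold positions and no genes.

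ATAC-seq uses the Tn5 transposase, which inserts sequencing adapters where DNA is not wrapped around nucleosomes, so that pile-ups of insertions mark open chromatin such as active promoters and enhancers. Tn5 also has sequence preferences of its own, and reads can pile up where sequence is repeated. DNA stripped of protein shows such positions without chromatin, which is why a naked DNA library serves as a control.

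A minority of adult leg peaks in each library lay on naked DNA peaks. The overlapping peaks numbered 15849 in adult leg 1, 15561 in adult leg 2 and 12995 in adult leg 3, which was 20.8%, 31.4% and 26.9% of each list (95% Wilson intervals 20.5% to 21.1%, 31.0% to 31.8% and 26.5% to 27.3%). Over all 9 nuclei libraries, 17.1% of 281010 merged regions overlapped naked DNA. Merged regions count a shared peak once, so this is not on the scale of the shares per list. The like value for the merged adult lists was 23.1% of 109645 regions. The longest list had the lowest share of the 3 adult libraries, although the numbers of overlapping peaks differed far less than the numbers of other peaks (60419, 33941 and 35329).

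The adult mean of 26.4% ± 5.35 (SD, n = 3) lay above the embryonic leg mean of 18.4% ± 1.24 (SD, n = 3), where the libraries gave 19.5%, 18.7% and 17.1%. The groups did not overlap, and the difference of 7.92 percentage points gave p = 0.1 in a two-sided exact permutation test, which cannot go lower with 3 libraries against 3. Adjusted by the Benjamini-Hochberg method over 7 comparisons of adult with embryonic legs, that p was 0.583, so the difference did not pass correction. With the 48324 strongest peaks of every nuclei library, so that all lists had equal length, the difference was 8.64 percentage points (exact permutation p = 0.1). Age and leg identity differ together between these groups and cannot be told apart.

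The overlaps were mostly not marginal. Of the overlapping peaks, 58.5%, 67.8% and 67.9% in adult legs 1, 2 and 3 lay wholly inside naked DNA peaks, and the median overlapping peak was covered over 100% of its length in each library. The main summit, the called summit of a peak with the lowest deposited p-value, fell inside a naked DNA peak for 17.3%, 28.0% and 23.5% of all adult peaks. Only 49, 19 and 16 adult peaks touched more than 1 naked DNA peak. Peaks at the boundary were few: 159, 94 and 90 peaks shared at most 10 bp with naked DNA, and 168, 109 and 119 peaks ended within 10 bp of it without touching. Their median folds were 5.40, 4.81 and 4.22 just inside and 4.92, 3.99 and 3.99 just outside, where fold is the authors' deposited enrichment of a peak over its expected pile-up. The other peaks were mostly far from naked DNA peaks, with a median distance of 6410, 6103 and 6150.5 bp on scaffolds that carried both.

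Seen from the naked DNA, overlap with adult legs was concentrated among its strongest peaks. Of 161533 naked DNA peaks, 14.7% were overlapped in at least 1 adult leg library, while 137852 were in none, 11937 in 1, 4875 in 2 and 6869 in all 3. The median naked DNA fold was 2.62 for peaks in no adult library, 3.08 for those in 1, 4.66 for those in 2 and 8.27 for those in all 3, and the median width went from 436 to 543, 601 and 673 bp in the same order. The naked DNA peaks were then ranked by fold and divided into deciles, groups of equal size numbered from the lowest fold. From the lowest to decile 9, the share overlapped in any adult library went from 6.42% to 17.3%, and in the highest decile, with folds from 4.58 to 34.8, it was 61.5%. In that decile 26.8% were overlapped in all 3 adult libraries, against 2.88% in decile 9. Per library, 39.9%, 50.5% and 40.0% of the highest decile were overlapped in adult legs 1, 2 and 3.

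**Figure D1:**
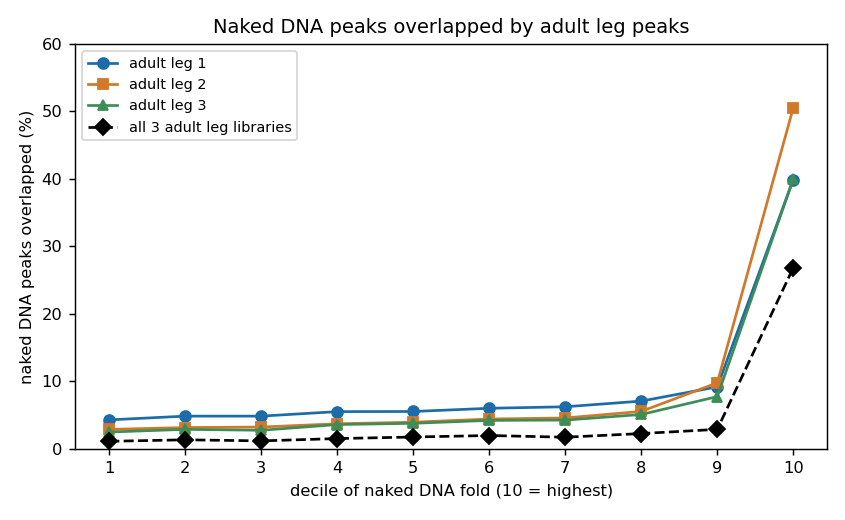
Share of naked DNA peaks overlapped by a peak of each adult leg library (coloured lines) and of all 3 (dashed line), in percent, by decile of naked DNA fold from lowest (1) to highest (10). In every library the share stays below 10% up to decile 9 and reaches 39.9% to 50.5% in the highest.

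The highest decile is called strong naked DNA below and the other 9 deciles weaker, a division made after these values had been seen. Strong naked DNA peaks accounted for 44.2%, 56.2% and 53.4% of the overlapping peaks of adult legs 1, 2 and 3. As a share of all adult peaks, those over strong naked DNA were 13.7% ± 4.28 in adult legs and 7.96% ± 1.19 in embryonic legs (SD, n = 3 each), a difference of 5.79 percentage points with an exact permutation p of 0.1. Summits of adult peaks lay closer to the summit of a strong naked DNA peak, at a median of 67, 60 and 67 bp, than to that of a weaker one, at 198, 184 and 192 bp. The shorter distance over strong naked DNA held in all 3 libraries, although the naked DNA peaks of the highest decile were the widest, with a median of 597 bp against 380 to 532 bp in the other deciles.

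The 10 naked DNA peaks of highest fold show this at single positions. All 10 lay on scaffolds whose last peak, over all 10 lists, ended between 331 and 796 bp, and all 10 were overlapped in all 3 adult leg libraries. The first, at phaw_50.077650:36-596, had a naked DNA fold of 34.8 and folds of 23.1, 31.6 and 26.3 in adult legs 1, 2 and 3. The second, at phaw_50.048714:233-796, had 34.5 in naked DNA and 40.8, 52.4 and 34.6 in the adult legs. Adult values were not uniform among them: the fifth, at phaw_50.085494:1-571, had 34.0 in naked DNA and 6.75, 10.3 and 7.98 in the adult legs. Folds of separate lists are not on a common scale and are given side by side only. The 5 naked DNA peaks of highest fold on scaffolds reaching at least 1 Mb, looked up after the values had been seen, were also in all 3 adult libraries, the first at phaw_50.283823c:4786472-4786932 with a naked DNA fold of 32.2.

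Overlapping peaks were wider than the other peaks of the same library, and more often had several summits. Median widths were 309, 316 and 271 bp against 254, 239 and 225 bp in adult legs 1, 2 and 3, ratios of 1.22, 1.32 and 1.20 (mean 1.25 ± 0.065, SD, n = 3). Peaks with 2 or more summits made up 11.5%, 9.37% and 6.86% of overlapping peaks and 6.94%, 2.98% and 3.97% of the others, a mean difference of 4.62 ± 1.75 percentage points that was 9.08 ± 2.97 with nuclei peaks limited to q-values up to 1e-05. Both differences had the same sign in all 3 libraries, and the exact two-sided sign-flip permutation p was 0.25 for each, the smallest that 3 libraries allow (0.375 adjusted over 6 measures). Embryonic legs gave a width ratio of 1.29 ± 0.006 and a summit difference of 5.47 ± 0.266 percentage points, and a difference from adult legs was not detected (adult minus embryonic -0.044 and -0.848, exact permutation p = 0.4 and 0.5). The widest overlapping peak of adult leg 2, at phaw_50.002159:5656-8163, spanned 2508 bp with 6 summits and was found in both other adult libraries and in all 6 other nuclei libraries. The widest of the other peaks in that library, at phaw_50.282654b:24065001-24066817, spanned 1817 bp with 5 summits and was found in 3 of those 6.

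Strong and weaker naked DNA contributed unequally to these differences. Adult peaks over strong naked DNA had median widths of 317, 356 and 292 bp, and those over weaker naked DNA 301, 268 and 249 bp. Several summits were present in 13.0%, 12.7% and 7.26% of the former and 10.4%, 5.05% and 6.40% of the latter. Both kinds lay above the other peaks in all 3 libraries on both measures.

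**Figure D2:**
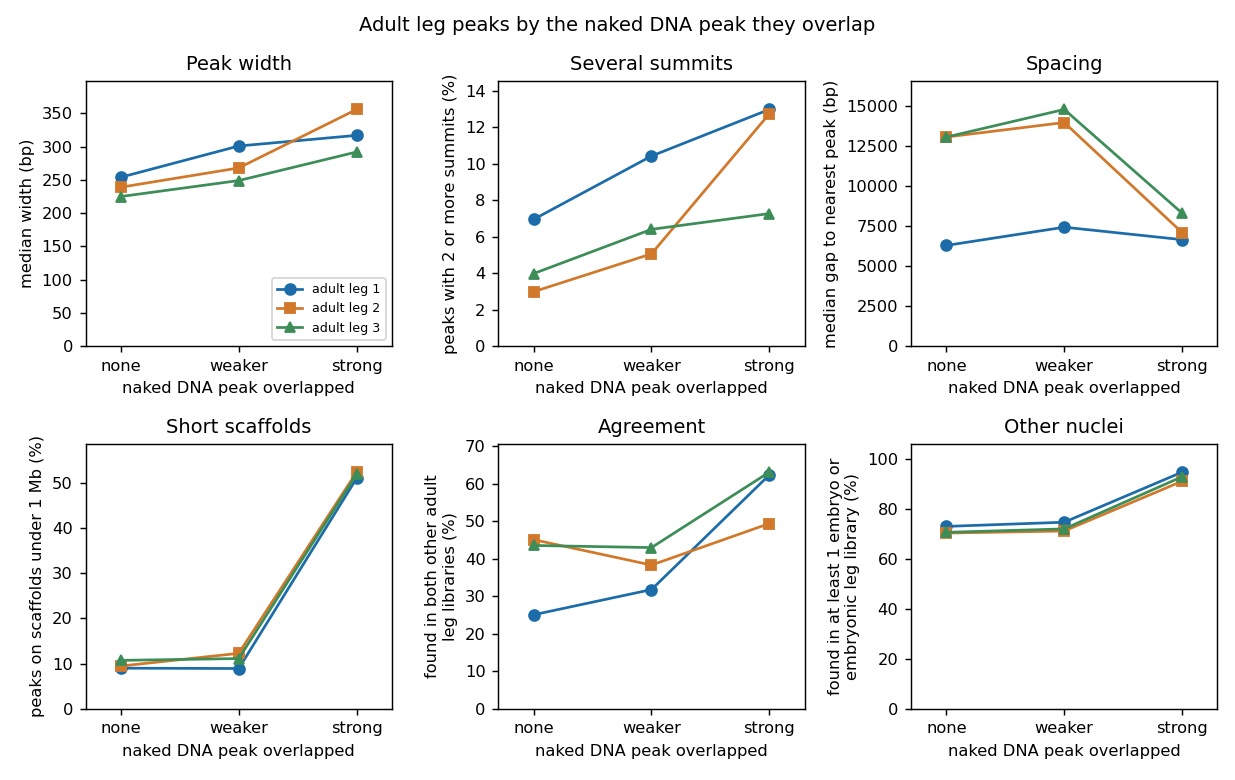
Measures of adult leg peaks that overlap no naked DNA peak, a weaker one, or a strong one (highest decile of naked DNA fold), with 1 line per adult leg library. Width and summits are higher for both overlapping kinds, while the percentage on short scaffolds is 8.92% to 12.3% over weaker naked DNA and 51.0% to 52.4% over strong naked DNA.

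The spacing of peaks along the genome gave no common direction. The median gap to the nearest peak of the same library was 7184, 10797 and 12004 bp for overlapping peaks and 6291, 13068 and 13065 bp for the others, ratios of 1.14, 0.826 and 0.919 (exact sign-flip permutation p = 0.75). Peaks alone on their scaffold have no gap. They do not enter these medians and count below as having no close neighbour. With nuclei peaks limited to q-values up to 1e-05 the mean ratio was 1.30 ± 0.024 in place of 0.962 ± 0.162. Close neighbours were nevertheless more frequent among overlapping peaks, of which 15.1%, 12.6% and 11.9% had a neighbour within 1 kb, against 9.69%, 4.99% and 5.90% of the others. The neighbours were often of the same kind. On scaffolds reaching at least 1 Mb, the nearest neighbour also overlapped naked DNA for 36.4%, 46.2% and 41.5% of overlapping peaks and for 12.8%, 17.9% and 16.1% of the others. Of all peaks on those scaffolds 17.3%, 24.8% and 21.7% overlapped naked DNA. Adult peaks on the same naked DNA peak are close neighbours of the same kind by the rule, and naked DNA peaks had a median width of 453 bp. Both neighbour results are therefore partly set by the rule, and pairs on the same naked DNA peak were not counted apart.

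Gaps over strong naked DNA were a median of 6652, 7097 and 8310.5 bp, and over weaker naked DNA 7432, 13975 and 14792 bp. These medians leave out the peaks alone on a scaffold, which were 36.7%, 38.8% and 37.5% of peaks over strong naked DNA. Over weaker naked DNA they were 4.96%, 7.62% and 7.14%. On scaffolds reaching at least 1 Mb they were 8553.5, 9323 and 11096 bp over strong naked DNA, 7580, 14668 and 15302.5 bp over weaker naked DNA and 6300, 13164 and 13175 bp for the other peaks. In adult legs 2 and 3, peaks over strong naked DNA were thus the most closely spaced, and in adult leg 1 they were not.

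Clusters of shared regions were counted in windows of 100 kb. Of 12961 windows with at least 1 region called in all 3 adult leg libraries, 210 held 3 or more on naked DNA and 1611 held 3 or more off it, and 36 and 368 held 5 or more. Of the 22296 such regions, 7223 (32.4%) were on naked DNA, and 35.8% of these lay on scaffolds under 1 Mb. The counts of windows thus start from unequal numbers of regions and do not say which kind clusters more. The window with most regions on naked DNA, the first 100 kb of phaw_50.000111, held 14 regions on naked DNA, 9 of them on strong naked DNA, and 1 other. At the opposite end, the window from 30.9 to 31.0 Mb of phaw_50.282654b held 13 regions and none on naked DNA. Both windows were picked for their count of 1 kind and are given as a description.

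Short scaffolds held a much larger part of the overlapping peaks. Scaffold size was taken as the end of the last peak in any of the 10 lists, a lower bound of the length that, on a scaffold with 1 peak, is set by that peak. By this measure 158 of 28600 scaffolds reached 1 Mb. Scaffolds under 1 Mb carried 27.5%, 34.8% and 32.9% of the overlapping peaks of adult legs 1, 2 and 3, and 8.99%, 9.46% and 10.7% of the others. The difference was 22.0 ± 3.42 percentage points (SD, n = 3), of the same sign in all 3 libraries (exact sign-flip permutation p = 0.25, adjusted 0.375), and was 20.0 ± 1.56 in embryonic legs. With naked DNA peaks limited to q-values up to 1e-05 it was 36.9 ± 0.913 in adult legs. Overlapping peaks were also more often the only peak of their library on a scaffold, 19.0%, 25.2% and 23.4% against 7.21%, 7.60% and 8.85%. Scaffold size and naked DNA strength moved together: 53.6% of the strong naked DNA peaks and between 2.07% and 24.5% of the peaks of each lower decile lay on scaffolds under 1 Mb.

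The share on naked DNA was not highest on the shortest scaffolds. It averaged 48.4% ± 10.3 on scaffolds under 1 kb, 60.8% ± 9.36 from 1 to 10 kb, 64.9% ± 6.05 from 10 to 100 kb and 48.7% ± 6.30 from 100 kb to 1 Mb (SD, n = 3). On scaffolds of 1 to 10 Mb it was 24.2% ± 3.95, and on those of 10 Mb and more 20.8% ± 3.74. In each library the class from 10 to 100 kb was highest, in adult leg 2 with 71.3% against 71.1% from 1 to 10 kb, and every class under 1 Mb lay above both classes over 1 Mb. The size measure counts naked DNA peaks too, so a scaffold without one can fall into a lower class. The lower share under 1 kb may therefore be partly set by the measure.

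**Figure D3:**
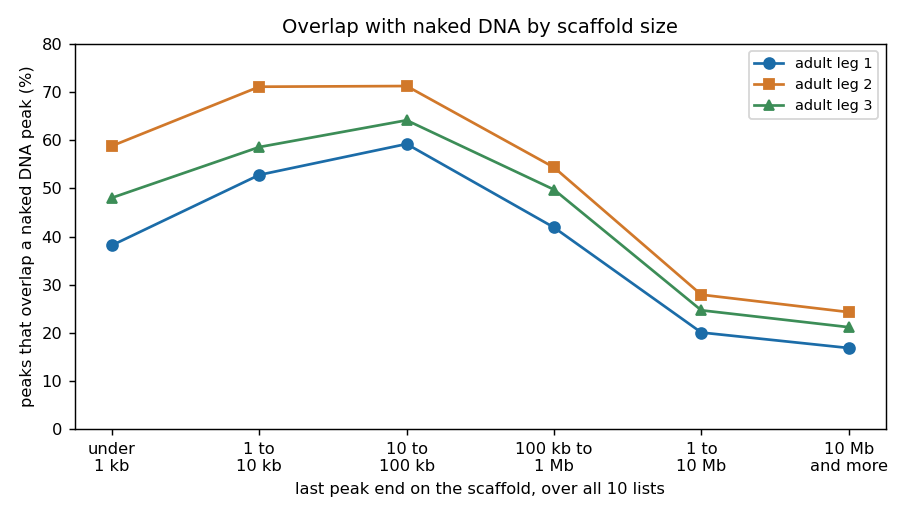
Percent of the peaks of each adult leg library that overlap naked DNA, by the last peak end on their scaffold over all 10 lists, used as a lower bound of scaffold length. The lists include naked DNA, so a naked DNA peak can move its scaffold into a larger class. All 3 libraries peak at 10 to 100 kb, at 59.2%, 71.3% and 64.2%, and are lowest at 10 Mb and more, at 16.9%, 24.3% and 21.2%.

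The excess on short scaffolds was found for peaks over strong naked DNA. Of these, 51.0%, 52.4% and 51.9% lay on scaffolds under 1 Mb, against 8.92%, 12.3% and 11.1% of peaks over weaker naked DNA and 8.99%, 9.46% and 10.7% of peaks over none. Strong minus none was 42.0 ± 0.876 percentage points (exact sign-flip permutation p = 0.25). A peak over strong naked DNA shares the scaffold of that naked DNA peak, and 53.6% of strong naked DNA peaks lay on scaffolds under 1 Mb. The same naked DNA list was used for all 3 libraries. Their close values therefore largely repeat the layout of that list and do not show a trait of adult legs. Weaker minus none was 1.05 ± 1.55, a difference within the spread between libraries, with values of -0.077, 2.82 and 0.40 (exact permutation p = 0.5).

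Agreement among the 3 adult leg libraries depended on which library was asked. Of all peaks of adult legs 1, 2 and 3, 29.3%, 44.9% and 46.3% were found in both other adult libraries. Among overlapping peaks this was 45.3%, 44.5% and 53.7%, and among the others 25.1%, 45.1% and 43.5%. The overlapping peaks were thus shared more often in adult legs 1 and 3, by 20.2 and 10.2 percentage points, and not in adult leg 2, where the difference was -0.544. The mean of 9.96 ± 10.4 was no larger than the spread (exact sign-flip permutation p = 0.5). It was 3.82 ± 15.9 with nuclei peaks limited to q-values up to 1e-05 and 5.93 ± 8.64 on scaffolds reaching at least 1 Mb. The peaks found in both other libraries numbered 7179, 6930 and 6980 among overlapping peaks and 15142, 15300 and 15379 among the others. These are largely the same regions seen from each list. The percentages of a kind thus differ mainly with the number of its peaks in each list. The 3 differences are not independent, so their SD and p-value do not measure a spread between separate results.

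The signs were the same at matched fold. Within deciles of fold of each list, overlapping peaks were shared more often in 10 of 10 deciles in adult leg 1, in 3 of 10 in adult leg 2 and in 10 of 10 in adult leg 3, with mean differences of 18.2, -4.87 and 9.76 percentage points. Stronger peaks were more often shared in both kinds. In adult leg 2 the difference within deciles of fold ranged from -13.6 to 1.48, and in adult leg 1 from 7.84 to 28.7. Within deciles of width, overlapping peaks were shared more often throughout in adult leg 1 and less often throughout in adult leg 2. In adult leg 3 they were shared less often in deciles 8 and 9 of width and more often in the others. In decile 8 of width the values were 56.5% against 40.6%, 46.8% against 66.8% and 66.2% against 67.3% in adult legs 1, 2 and 3.

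**Figure D4:**
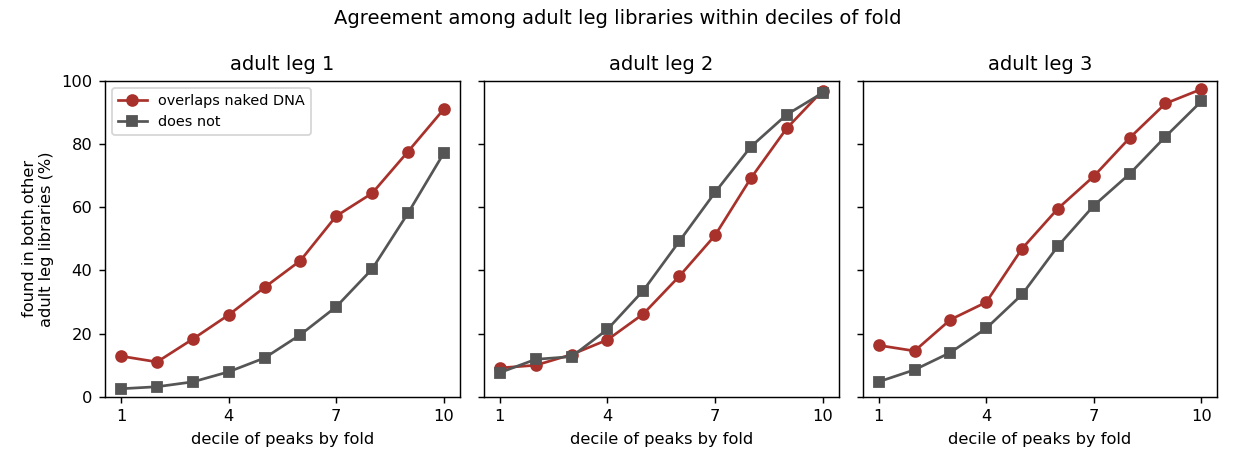
Percent of the peaks of each adult leg library found in both other adult leg libraries, by decile of fold within that list (10 = highest), for peaks that overlap naked DNA (circles) and the others (squares). The circles lie above the squares in 10, 3 and 10 of the 10 deciles in adult legs 1, 2 and 3.

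The share of regions on naked DNA differed with the libraries that held them. Merging the adult lists gave 109645 regions, of which 25364 (23.1%) overlapped naked DNA, and 22296 regions, 20.3%, were called in all 3 libraries. The share on naked DNA was 19.3% of regions called in 1 library, 26.2% of those in 2 and 32.4% of those in all 3. It was 13.4% for regions of adult leg 1 alone, 30.2% for adult leg 2 alone and 21.7% for adult leg 3 alone. Regions shared by adult legs 2 and 3 but not 1 were on naked DNA in 55.2% of 2473 cases, against 27.8% of 7588 regions of adult legs 1 and 2 and 16.7% of 8814 regions of adult legs 1 and 3. In number, regions on naked DNA called in 1 library were 4988 in adult leg 1, 5112 in adult leg 2 and 3094 in adult leg 3, so adult leg 2 differed from adult leg 1 in share and little in count.

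Peaks over strong naked DNA were found in both other adult libraries in 62.3%, 49.4% and 63.1% of cases, and those over weaker naked DNA in 31.8%, 38.3% and 43.0%. Against the peaks over none, strong differed by 37.3, 4.30 and 19.5 percentage points, higher in 3 of 3 libraries (exact sign-flip permutation p = 0.25), and weaker by 6.71, -6.77 and -0.563 (exact permutation p = 0.75). On scaffolds reaching at least 1 Mb the strong differences were 34.2, 2.56 and 16.3. The peaks over strong naked DNA found in both other libraries numbered 4371, 4322 and 4380, again largely the same regions. These differences are therefore not independent either.

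Overlapping peaks were more often found outside adult legs. In adult legs 1, 2 and 3, 75.3%, 74.2% and 74.1% of all peaks overlapped a peak of at least 1 of the 6 embryo and embryonic leg libraries. The share was 83.7%, 82.5% and 83.3% of overlapping peaks and 73.1%, 70.4% and 70.7% of the others, a difference of 11.7 ± 1.03 percentage points (SD, n = 3), of the same sign in all 3 libraries (exact sign-flip permutation p = 0.25, adjusted 0.375). Within deciles of fold it was positive in 10 of 10 deciles in each library, with means of 9.35, 8.91 and 11.7. Within deciles of width it was positive throughout in each library. In decile 5 of width the values were 79.4% against 71.7%, 75.1% against 69.1% and 80.8% against 68.0% in adult legs 1, 2 and 3. In decile 10, the widest, they were 98.0% against 95.2%, 98.7% against 95.4% and 99.0% against 97.0%. The overall difference was 5.99 ± 2.28 with nuclei peaks limited to q-values up to 1e-05 and 18.8 ± 0.699 with naked DNA peaks at that limit. All 6 libraries held 24.2%, 23.5% and 26.7% of overlapping peaks and 11.5%, 16.4% and 16.1% of the others. Embryonic legs gave a like difference of 11.9 ± 2.08 for presence in embryo and adult leg libraries. The 3 adult values behind 11.7 ± 1.03 use the same naked DNA list and the same 6 libraries, so they are not independent.

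The excess differed between the 6 libraries. In the stage 20 embryo, 57.9% ± 3.16 of overlapping adult peaks and 25.3% ± 3.13 of the others were found, a difference of 32.6 ± 1.06 percentage points (SD, n = 3 adult libraries). In the stage 23 embryo the difference was 21.5 ± 2.34. In the stage 24 embryo it was 1.02 ± 2.33, with values of 2.92, -1.58 and 1.72 in adult legs 1, 2 and 3. Embryonic legs 1, 2 and 3 gave 8.10 ± 2.84, 4.14 ± 3.01 and 4.51 ± 2.23. The stage 24 list stands apart from the rest, since its narrowest peak is exactly 200 bp wide against 122 to 152 bp in the other nuclei lists, and it is also the longest, with 119994 peaks. Without it, an alternative chosen after seeing the data, presence in at least 1 of the other 5 libraries differed by 12.4 percentage points. The 6 lists also differed in their own share on naked DNA, which was 30.1%, 26.2% and 15.6% in the stage 20, 23 and 24 embryos. In embryonic legs 1, 2 and 3 it was 19.5%, 18.7% and 17.1%. Whether these shares have a part in the excess was not tested. Each embryo is a single animal, so stage and library cannot be told apart.

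**Figure D5:**
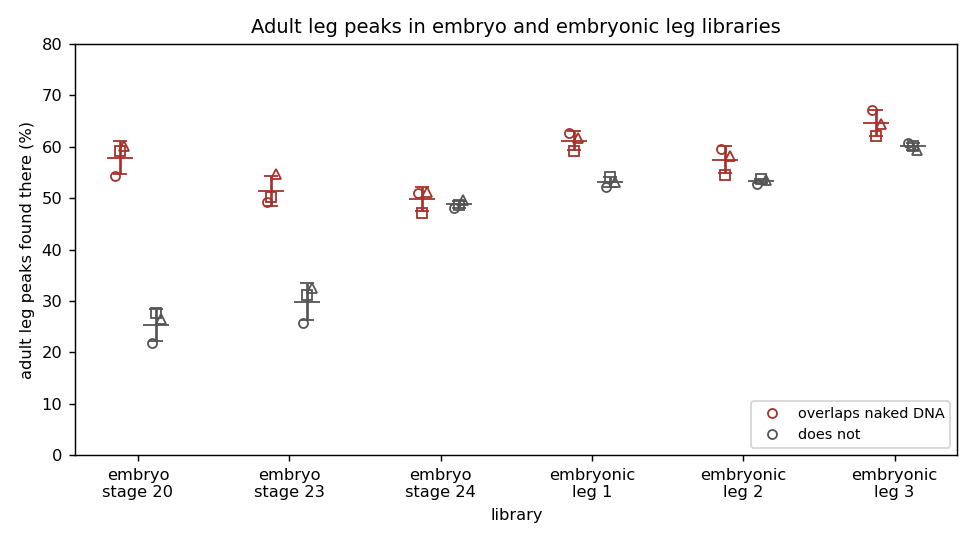
Percent of adult leg peaks that overlap a peak of each embryo or embryonic leg library, for peaks on naked DNA (red) and the others (grey). Symbols are adult legs 1 (circle), 2 (square) and 3 (triangle), and bars give the mean ± SD, n = 3; the gap is 32.6 percentage points in the stage 20 embryo and 1.02 in the stage 24 embryo.

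The difference was again found mainly over strong naked DNA. Peaks over it were found in at least 1 of the 6 libraries in 94.9%, 91.2% and 93.0% of cases, against 74.8%, 71.3% and 72.1% over weaker naked DNA and 73.1%, 70.4% and 70.7% over none. Strong minus none was 21.6 ± 0.752 percentage points and weaker minus none 1.29 ± 0.429, each positive in 3 of 3 libraries (exact sign-flip permutation p = 0.25 for each). In the stage 20 embryo 79.9% of adult peaks over strong naked DNA were found, and 35.1% of those over weaker naked DNA. On scaffolds reaching at least 1 Mb, strong minus none was 22.2 ± 0.539 and weaker minus none 1.33 ± 0.341. These comparisons by strength belong to a family of 30, in which the smallest adjusted p was 0.313. The same naked DNA list and the same 6 libraries served all 3 adult libraries. Their close values are therefore not independent.

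Among the 22296 regions called in all 3 adult libraries, the share on naked DNA was higher where more of the other nuclei libraries also had a peak. It was 15.4% of 1263 regions found in none of the 6 (95% Wilson interval 13.5% to 17.5%) and 40.5% of 8230 regions found in all 6 (39.4% to 41.6%). In between it was 18.9%, 26.4%, 25.5%, 24.9% and 35.2% for 1 to 5 libraries, so 2, 3 and 4 libraries did not differ beyond their intervals. The share on strong naked DNA alone went from 2.14% for none to 25.4% for all 6. The adult regions found in no embryo and no embryonic leg library thus held few strong naked DNA peaks.

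The 10 shared regions of highest mean fold were all on naked DNA. Among regions in all 3 adult libraries, these 10 had mean folds of 40.7 to 50.3 and naked DNA folds of 16.7 to 34.5. The first, at phaw_50.095232:7-340, had folds of 53.5, 50.7 and 46.6 in adult legs 1, 2 and 3 and 28.3 in naked DNA. The third, at phaw_50.283743b:2468168-2468598 on a scaffold reaching 20459496 bp, had 46.7, 47.7 and 47.4 and a naked DNA fold of 30.2. The 10 of highest mean fold off naked DNA, listed separately, all lay below them, with means of 31.6 to 40.0. The first of these, at phaw_50.080057:153-308, had folds of 41.1, 40.1 and 38.8, and the second, at phaw_50.283829a:2482142-2482411, had 41.1, 36.2 and 35.7. Of each 10, 7 on naked DNA and 8 off it lay on scaffolds under 1 Mb, where 17.3% of all regions called in the 3 adult libraries lay. All 10 of each kind were found in 5 or 6 of the other nuclei libraries. Of all 22296 regions called in the 3 adult libraries, 5116 were found in 5 and 8230 in 6 of them. In the highest decile of fold of each adult list, 97.9% to 99.4% of peaks of either kind were found in at least 1. The presence of these regions elsewhere is therefore not particular to them.

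The expected pile-up around a peak separated the kinds too. It is the local background that the caller compares a peak with, recovered here from the deposited fold and p-value for a mean of 99.9% of the rows of an adult list. The most frequent expected pile-up of a list was 0.482, 0.451 and 0.252 in adult legs 1, 2 and 3 and 5.11 in naked DNA, so that, read as relative depth, naked DNA was the deepest and adult leg 3 the shallowest of these libraries. An expected pile-up more than 1.1 times that value was found for 57.6%, 55.4% and 54.6% of overlapping peaks and 78.0%, 74.5% and 70.7% of the others. On scaffolds reaching at least 1 Mb it was 68.4%, 68.0% and 65.8% against 82.9%, 79.9% and 76.0%. Overlapping peaks thus less often had a raised expected pile-up, in all 3 libraries and also without the short scaffolds. Whether depth has a part in the shares of overlap was not tested.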

How the data were processed

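Each of the 10 libraries has its own deposited peak list, so peaks had been called per library. Per the submitters' processing notes, the tools were MACS2 2.2.7.1, Bowtie2 2.5.4, Picard, bedtools 2.31.1 and SAMtools 1.21, with no roles stated. Scaffold names begin with phaw_50; the build, the control library, the calling threshold and any shift for Tn5 were not given in the sources used here. The deposited fold enrichment is a ratio given by the authors for each peak, and it was used only to describe and rank peaks within a list. The deposited p-values and q-values are −log10 values, and every list ended at a q-value of 0.05. The authors' display score was deposited too and entered no result.

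Rows that share both ends hold the summits of a single peak and were collapsed, and overlap meant at least 1 bp. Pile-ups were solved from fold and −log10 p, with a tolerance of 0.002. Read totals are not in the lists, and Wilson intervals cover counting error only. Libraries were compared by exact two-sided permutation tests with Benjamini-Hochberg adjustment over 6 measures within adult legs and 7 between tissues. Regions were named by rule: the 10 of highest mean fold of each kind, the 10 strongest naked DNA peaks, 5 windows of 100 kb of each kind and the widest peaks. Alternatives changed the q-value limit, list length, overlap rule, scaffolds and libraries.

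Members, measures and named regions were chosen with earlier results of these data known. Software was scipy 1.17.1, pandas 2.3.3 and numpy 2.4.6 under Python 3.11.15. Overlaps, collapsed summits, pile-ups and both permutation tests were tested on simulated data.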

Additional observations from a re-analysis of the deposited data

How the results depend on the processing

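Of 82 recomputed values of the 7 main comparisons, 57 kept their direction and moved by less than the spread between libraries, 17 moved further and 8 reversed. No exact permutation test here can pass 0.05, so these are values and not calls, and the cause of each move was not tested. The spacing ratio (0.962) reversed to 1.30 with nuclei peaks at a q-value of at most 1e-05, to 1.03 with 48324 peaks per library, to 1.09 on scaffolds from 1 Mb and to 1.17 with the other 9 deciles of naked DNA fold; without 1 adult library it ranged from 0.873 to 1.03, and the latter was without adult leg 2. With those 9 deciles alone, where peaks over strong naked DNA join the other peaks, short scaffolds gave -5.60, agreement -2.84 and presence elsewhere -2.09 percentage points, width 1.09, summits 1.63 and the share against embryonic legs 2.13. With the highest decile alone, width was 1.32, spacing 0.733, short scaffolds 41.9, agreement 20.5 and presence 21.4. A q-value of at most 1e-05 gave 1.31 for width, 9.08 for summits and 5.99 for presence in nuclei lists, and 0.743 for spacing, 36.9 for short scaffolds and 18.8 for presence in the naked DNA list. Presence was 13.1 with equal lists and 8.96 on scaffolds from 1 Mb, and short scaffolds 25.5 when the summit had to lie inside a naked DNA peak. The scaffold comparison has no value on scaffolds from 1 Mb, since these leave it no short ones.

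Leaving out 1 adult library moved the share difference (7.92) to between 5.39 (without adult leg 2) and 10.7 (without adult leg 1). Same-numbered adult and embryonic legs did not deviate together (correlations of -0.00974, -0.0343 and 0.0216), so the numbers do not pair them; with the replicate block the difference was 7.92 with an exact permutation p of 0.25. One naked DNA library without a replicate sets every overlap, and its most frequent expected pile-up exceeds those of the 6 leg libraries.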

Other observations

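Regions called in adult leg 1 alone were found in an embryo or embryonic leg library equally often on and off naked DNA, 59.6% in both cases. For regions of adult leg 2 alone the shares were 57.7% on naked DNA and 36.1% off it, and for adult leg 3 alone 47.2% and 32.1%. Regions in all 3 adult libraries gave 97.3% and 92.9%. These differences were not tested.

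Of the 137852 naked DNA peaks in no adult leg library, 117849 were in no nuclei library at all. Several summits were present in 8.69% of the 137852, and in 19.8%, 23.9% and 26.0% of the naked DNA peaks found in 1, 2 and 3 adult libraries.

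Adult peaks that overlapped no naked DNA peak lay on scaffolds without any naked DNA peak in 7.03%, 7.08% and 8.19% of cases in adult legs 1, 2 and 3.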
